A study of Mus musculus with 2 samples.

Results

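The genes described here are 10 immediate-early transcription factor and response genes, Egr1, Egr2, Egr3, Nr4a1, Nr4a2, Nr4a3, Csrnp1, Ier2, Ier3 and Ifrd1, out of 37008 gene names on a mouse expression array. They were listed by name, and their probes were all gene probes whose accession or name in the array files leads to one of them, 18 of 56605. The list was drawn up with earlier results of the same arrays known, so the differences below are descriptions of these members and no evidence that such genes stand apart. Unfertilised oocytes were isolated from C57BL/6 mice that were wild type or Mul1 knockout. Mul1 is a ubiquitin ligase that sits in the outer membrane of mitochondria. The wild-type pool held 213 oocytes and the knockout pool 123, and the amplified, Cy3-labelled RNA of each pool went onto 1 single-colour Agilent array. The animals' age, the part of Mul1 that was deleted and the number of animals behind each pool are not given in the sources used here. By its title the study is about reactive oxygen species in oocytes without Mul1 and the embryos they form, and the arrays set the transcripts of the genotypes side by side.

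Immediate-early genes are transcribed within minutes of a stimulus without new protein synthesis, because the factors that switch them on, such as SRF with its ETS partners and CREB, are already present in the cell. Growth factors, calcium, cyclic AMP and many stresses induce them, and their short-lived mRNAs and proteins make the response brief. The EGR proteins are zinc-finger factors that bind GC-rich sites, and the NR4A proteins are orphan nuclear receptors whose activity is set mainly by how much of them is made. In the ovary both families are known as genes that the ovulatory hormone surge induces in the somatic cells of the follicle.

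All values come from 1 array per genotype, so no difference has a replicate check and none was tested. Precision is limited by this number of arrays. Signals are background-subtracted processed signals in arbitrary units. A difference is the log2 level in the knockout minus that in the wild type, each level taken relative to the 75th percentile of its own array. That percentile was a signal of 808 for wild type and 790 for the knockout. The error given with a difference is the scanner software's own error for the spots, carried over to the log2 difference. At bright spots it is a fixed share of the signal, as at Egr1 with 5864 on 58641, so bright probes all have a log2 error of 0.20. It is thus no measured spread, and it holds nothing of the spread between pools or animals. A probe was used where both arrays read it well above background, and the faintest probes so marked had signals of 12.9 and 15.8. Mul1 itself read 3353 and 1074 at the probe for NM_026689, a difference of -1.61 ± 0.20, and 19.3 and 23.1 at the dim probe for ENSMUST00000105815, a difference of 0.29 ± 0.37. Whether either probe lies in the deleted part is unknown, so they check the labels only in part. Of the oocyte markers Gdf9, Bmp15, Zp1, Zp2, Zp3, Mos, Dppa3, Oosp1, H1foo and Npm2, all 10 were well above background on both arrays, with differences from -0.21 for Dppa3 to 0.53 for Bmp15. Fewer cells of a type and less RNA per cell cannot be told apart in such pools.

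Of the 10 members, 4 were at least 2-fold lower on the knockout array and 0 were at least 2-fold higher, beside 1.37% and 2.93% of the 22894 genes measured on both arrays. In either direction 4.29% of all genes were that far apart. The 4 members were Csrnp1, Ifrd1, Nr4a1 and Nr4a2. Of all genes at least 2-fold apart 68.2% were higher on the knockout array, and 82.0% were with spike-in controls as the scale. Differences of 9 members lay below 0, as did 45.2% of all genes, and Egr2 lay above it. The members' median difference was -0.73, beside 0.03 over all genes. Nr4a2, at -1.05, lay just past 2-fold, and Egr1, at -0.94, just short of it. At the level of single probes, 15 of 18 were well above background on both arrays and 3 on neither. Of the 15, 7 were at least 2-fold lower and 0 at least 2-fold higher, beside 1.86% and 2.72% of 35255 probes. No spot of a member was marked as an outlier or saturated.

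**Figure D1:**
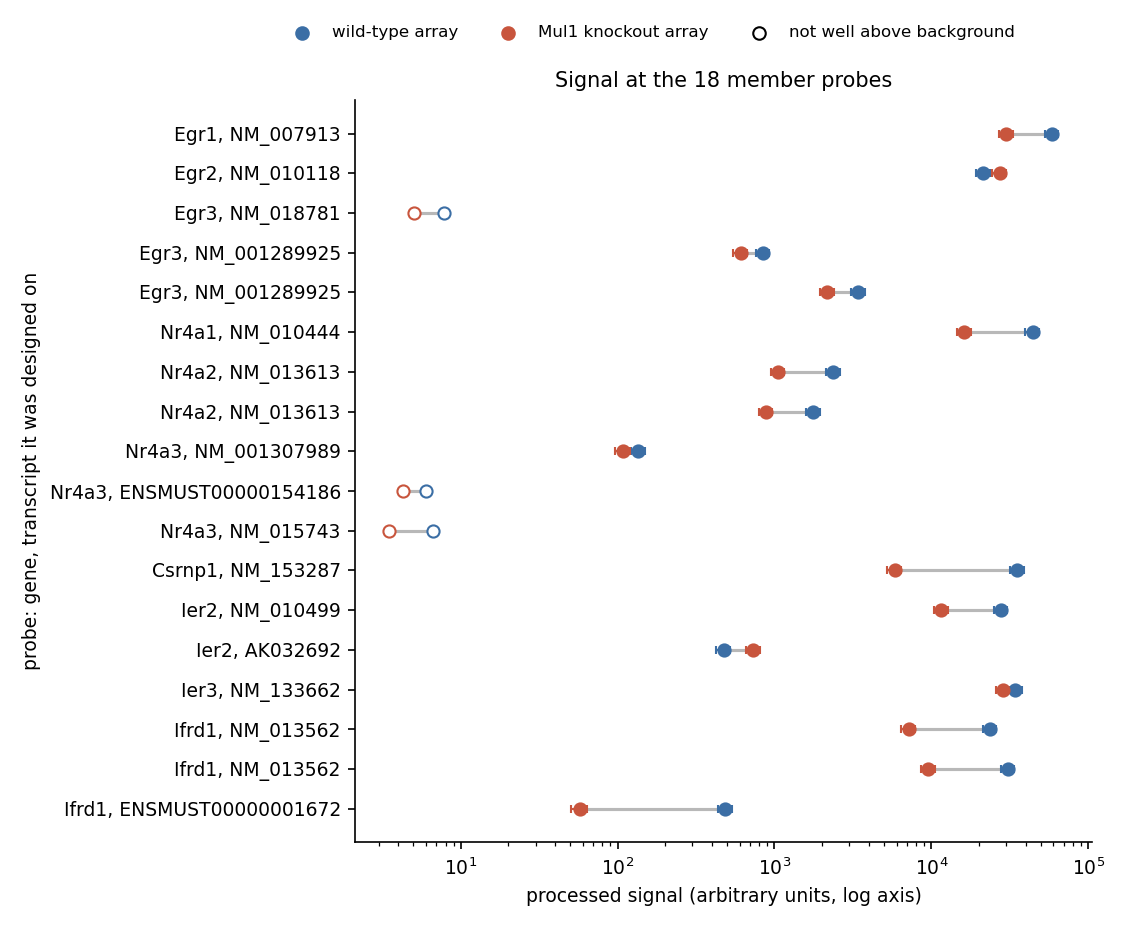
Processed signal (arbitrary units, log axis) of each of the 18 member probes on the wild-type and the Mul1 knockout array, with bars for the scanner's error and open circles for probes not well above background. The knockout point lies left of the wild-type point at 13 of the 15 measured probes, and right of it at Egr2 and at the Ier2 probe for AK032692.

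The EGR family was read at 5 probes and its members differed from each other. Egr1, which encodes the founding zinc-finger factor of the family, gave a signal of 58641 in wild type and 29968 in the knockout. The knockout signal was the lower one, by 1.91-fold, a difference of -0.94 ± 0.20. Its probe, at base 2856 of NM_007913 and in mm9 coordinates at 35024395 to 35024454 of chromosome 18, is the only one for the gene. All probe positions below are in mm9, and which exon or UTR they fall in was not looked up here.

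Egr2, the Krox-20 factor known for its roles in hindbrain patterning and myelination, read 21377 and 27201. It was the member that was higher on the knockout array, by 1.30-fold or 0.38 ± 0.20. The Egr2 probe lies on chromosome 10 at 67004758 to 67004817, at base 2786 of NM_010118. Set against Egr1 on the same arrays, Egr2 differed by 1.32 ± 0.29, a contrast that a constant scaling factor between the arrays leaves as it is.

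Egr3, a factor known from lymphocyte activation and from its need in muscle spindles, was read at 3 probes. The probe at base 3865 of NM_001289925 gave 3412 and 2167, a difference of -0.62 ± 0.20, and the probe at base 3483 gave 841 and 609, a difference of -0.43 ± 0.20. Both lie on chromosome 14, at 70482361 to 70482420 and at 70481979 to 70482038, and both were lower on the knockout array by less than 2-fold. Their mean put Egr3 at -0.53 ± 0.14, and the brighter probe was 0.31 ± 0.29 above Egr1. The remaining probe, at base 278 of NM_018781, read 7.84 and 5.04 and was not well above background on either array. It lies 3152 bases upstream of the nearer of the others, so Egr3 was read well above background only at the probes further along.

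The NR4A receptors were lower on the knockout array at all 4 probes that could be measured, by unequal amounts. Nr4a1, also called Nur77, read 44171 in wild type and 16161 in the knockout. This was 2.67-fold lower, a difference of -1.42 ± 0.20. The Nr4a1 probe, at base 2321 of NM_010444, lies on chromosome 15 at 101105071 to 101105130. Nr4a2, or Nurr1, best known for its need in dopamine neurons, read 2371 and 1049 at base 2050 of NM_013613 and 1762 and 883 at base 2749. On the minus strand these lie at 56960699 to 56960758 and at 56960000 to 56960059. The differences were -1.14 ± 0.20 and -0.96 ± 0.20, so probes 699 bases apart on chromosome 2 gave values within the scanner's error of each other, and their mean was -1.05 ± 0.14. Nr4a2 differed from Nr4a1 by 0.27 ± 0.29 at the brighter probe, which is within the scanner's error.

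Nr4a3, or Nor-1, gave a dim signal at 1 probe and none above background at the others. The probe at base 403 of transcript variant NM_001307989 read 136 and 108, or 10.6 and 6.85 times the faintest signal accepted, and its difference was -0.29 ± 0.21. Against Nr4a1 it lay higher by 1.12 ± 0.29. The probes at base 2003 of NM_015743, with 6.64 and 3.48, and at base 834 of ENSMUST00000154186, with 6.01 and 4.27, were not well above background on either array. The NM_015743 probe stretches over 3187 bases of chromosome 4 and so spans an intron. Only spliced RNA matches it along its full length, and whether it also reads unspliced RNA was not tested. The base 403 probe lies at 48064521 to 48064580. Which transcripts share the stretch that a probe reads was not looked up here, so transcript variants of Nr4a3 are not told apart. Of the NR4A probes, 3 with at least 1 open reading frame over their 60 bases are printed to show which stretches were read. Signal was well above background at Nr4a2 and at base 403 of Nr4a3, and at base 2003 of Nr4a3 it was not:
Nr4a2, base 2050 of NM_013613: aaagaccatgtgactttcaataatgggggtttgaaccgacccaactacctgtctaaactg
Nr4a3, base 403 of NM_001307989: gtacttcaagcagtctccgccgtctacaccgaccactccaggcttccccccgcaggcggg
Nr4a3, base 2003 of NM_015743: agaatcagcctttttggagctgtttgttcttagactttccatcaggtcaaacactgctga

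Csrnp1 had the largest difference of the 10. It encodes a cysteine- and serine-rich nuclear protein that binds DNA, and it read 35159 in wild type and 5829 in the knockout. The knockout signal was 5.90-fold lower, a difference of -2.56 ± 0.20, and still 369 times the faintest signal accepted. Its single probe, at base 2657 of NM_153287, lies on chromosome 9 at 119880457 to 119880516. Against Nr4a1 on the same arrays, Csrnp1 differed by -1.14 ± 0.29.

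Ifrd1, a transcriptional co-regulator also known as Tis7 that acts in muscle and nerve regeneration, was lower at each of its 3 probes, though by unequal amounts. The probe at base 1373 of NM_013562 read 23561 and 7163, and the probe at base 1545 read 30651 and 9574. Their differences were -1.69 ± 0.20 and -1.65 ± 0.20, close to each other. The probe at base 3248 of ENSMUST00000001672, 2342 bases further along chromosome 12 from the first, read 487 and 57.2. That is a difference of -3.06 ± 0.22, which lies -1.41 ± 0.30 from the value at base 1545. The mean over the 3 probes, -2.13 ± 0.12, therefore joins values that disagree. With a stricter filter that leaves out the base 3248 probe it was -1.67. The base 3248 probe carries the Ifrd1 name from the array files alone, and its knockout signal was 3.62 times the faintest signal accepted. The probes lie on the minus strand at 40930566 to 40930907, 40929927 to 40929986 and 40928224 to 40928283. The base 1373 probe covers 342 bases of the genome with its 60 and so crosses a splice junction. It is shown as the Ifrd1 probe that only spliced RNA matches along its full length, with at least 1 reading frame open along it:
Ifrd1, base 1373 of NM_013562: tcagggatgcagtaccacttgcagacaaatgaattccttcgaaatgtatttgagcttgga

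The Ier2 probes lay on both sides of 0, and Ier3 differed little. Ier2, a nuclear protein induced by growth factors, read 27704 and 11522 at base 1239 of NM_010499. This was 2.35-fold lower on the knockout array, a difference of -1.23 ± 0.20. The other probe named Ier2 in the files was designed on the cDNA AK032692, at its base 3068, and lies 1588 bases away on chromosome 8. It read 474 and 731, which was 1.58-fold higher on the knockout array, a difference of 0.66 ± 0.20. The probes were 1.89 ± 0.29 apart, and their mean of -0.29 describes neither. AK032692 had no match in the RefSeq table, so this probe carries the Ier2 name from the array files alone. The array files place the NM_010499 probe on 35 bases of the genome, 87185211 to 87185245, fewer than its length. Ier3, a stress-induced regulator of cell survival also called IEX-1, read 34131 and 28768. Its difference of -0.21 ± 0.20 was about as large as the scanner's error, and it lay 1.02 ± 0.29 above that of Ier2 at NM_010499. The Ier3 probe, at base 761 of NM_133662, lies on chromosome 17 at 35959528 to 35959587.

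**Figure D2:**
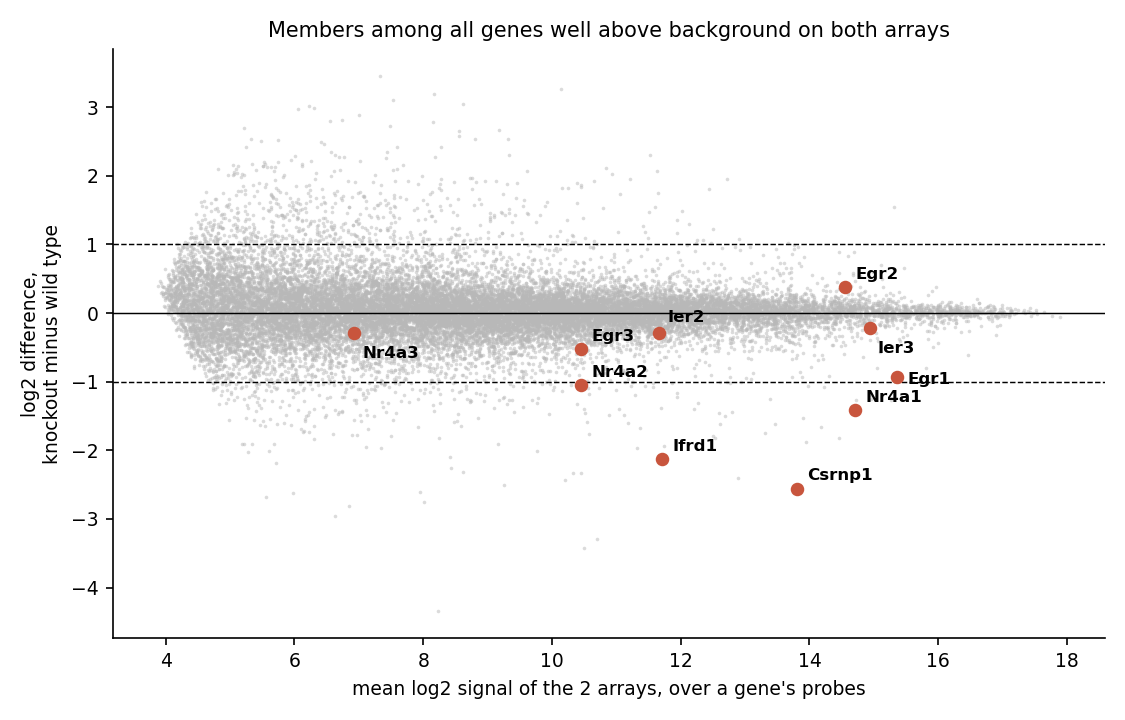
Difference between the arrays (log2, knockout minus wild type) against the mean log2 signal for 22894 genes, with the 10 members labelled and dashed lines at 2-fold. Nr4a3 sits toward the dim side, and Csrnp1, Nr4a1, Egr1, Ier3 and Egr2 on the bright side, where few genes leave the band around 0.

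Differences of this size were rarer among bright genes. Of the 10 members, 7 were among the brightest 20% of genes, namely Egr1, Egr2, Nr4a1, Csrnp1, Ier2, Ier3 and Ifrd1. Of these 7, 3 were at least 2-fold lower and 0 at least 2-fold higher, beside 0.764% and 0.437% of the 4579 genes in that range. The members had been picked on these values, so nothing further is read from that comparison. Ier2 is counted there by the mean of its probes, -0.29, and its bright probe alone was at -1.23.

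Other immediate-early genes were set beside the members from lists of known family members and targets, and their medians stand beside 0.03 over all genes. The counts in the lists here and below stand beside 1.37% of all genes at least 2-fold lower and 2.93% at least 2-fold higher. Like the members, these lists were chosen with earlier results of the same arrays known, so they are no independent support. Of 8 genes of the AP-1 family with Atf3, which dimerise to bind a shared DNA element, 4 were at least 2-fold lower and 0 higher, with a median of -1.10 and all 8 below 0. Atf3 was lowest at -3.43, with signals of 4799 and 436, and Fosb followed at -2.50 with 1468 and 253. Fosl1, a partner of Jun, lay at -1.28. Closest to 0 were Fosl2 at -0.03, Fos at -0.42 and Jund at -0.43. Fos itself, the classical marker of the response, had a smaller difference than Egr1, with signals of 15946 and 11662.

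Among 38 further immediate-early genes, 11 were at least 2-fold lower and 1 at least 2-fold higher, with a median of -0.66 and 34 below 0. On the spike-in scale 5 were at least 2-fold lower, and with normexp background correction 10 were lower and 0 higher, so that Dusp2 no longer reached 2-fold. The lowest were the matricellular gene Ccn1 at -2.40, the salt-inducible kinase gene Sik1 at -1.59, the cytokine feedback gene Socs3 at -1.53, the Kruppel-like factor gene Klf6 at -1.26 and the EGF receptor inhibitor gene Errfi1 at -1.19. The highest were the MAP kinase phosphatase gene Dusp2 at 1.19, with signals of 173 and 385, the G protein regulator gene Rgs2 at 0.63, the neuronal factor gene Npas4 at 0.47, the growth factor gene Ccn2 at 0.28 and Trib1 at -0.02. Npas4 was dim, at 38.8 and 52.5, and Rgs2 averages probes at 0.12 and 1.13.

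Further genes related to the members by family or by name were mixed. Of 8 genes, 2 were at least 2-fold lower, namely Egr4 at -1.49, with signals of 238 and 82.9, and Ier5 at -1.02, with 10026 and 4826. Egr4 is the fourth EGR factor, and its difference was further below 0 than that of Egr1. At least 2-fold lower was 1 of the 8 on the spike-in scale, and likewise with normexp. The others lay between -0.51 for Ier5l and 0.19 for Wt1, a zinc-finger gene related to the EGR factors, with Csrnp3 at -0.41, Ifrd2 at -0.32, Csrnp2 at -0.00 and Ier3ip1 at 0.06. Wt1 averages probes on both sides of 0, from -0.19 to 0.56.

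The co-regulators that EGR and NR4A proteins work with were not lower. Nab2, which represses EGR factors and is known as a gene that EGR factors induce, read 1457 and 1996, a difference of 0.49. The retinoid X receptor genes Rxra and Rxrb, whose products pair with Nr4a1 and Nr4a2, lay at 0.16 and 0.13. Rxrg was not well above background on either array, and no probe was matched to Nab1. None of these 3 measured genes was 2-fold apart.

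Kinases and factors that act upstream of immediate-early genes lay on both sides of 0. Of 19 genes, 0 were 2-fold apart in either direction, beside 4.29% of all genes, and their median was -0.02. With so few genes the count is near that share and does not set the list apart. Among the lowest were Srf at -0.55 and the RSK kinase gene Rps6ka2 at -0.35. The highest were the ERK1 gene Mapk3 at 0.35, the ETS factor gene Elk3 at 0.32 and the MEK2 gene Map2k2 at 0.26. Srf, which is also an immediate-early gene, read 6297 and 4201.

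Genes of steroid synthesis and metabolism, among which NR4A receptors have known targets, were not 2-fold apart in any of 6 cases. Star, which carries cholesterol into mitochondria, was lowest at -0.96 and Cyp11a1 and Akr1c18 followed at -0.40 and -0.19, while Cyp19a1, Cyp17a1 and Hsd3b1 read 0.63, 0.25 and 0.16. Of 7 EGF-like ligand genes, some of which relay the ovulatory signal between follicle cells, 2 were at least 2-fold lower, Ereg at -2.01 and Areg at -1.02. Hbegf, which is also among the 38 immediate-early genes, read -0.79. Btc at 0.35, Epgn at 0.30 and Tgfa at 0.08 were on the other side. On the spike-in scale, and likewise with normexp, 1 of the 7 was at least 2-fold lower.

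**Figure D3:**
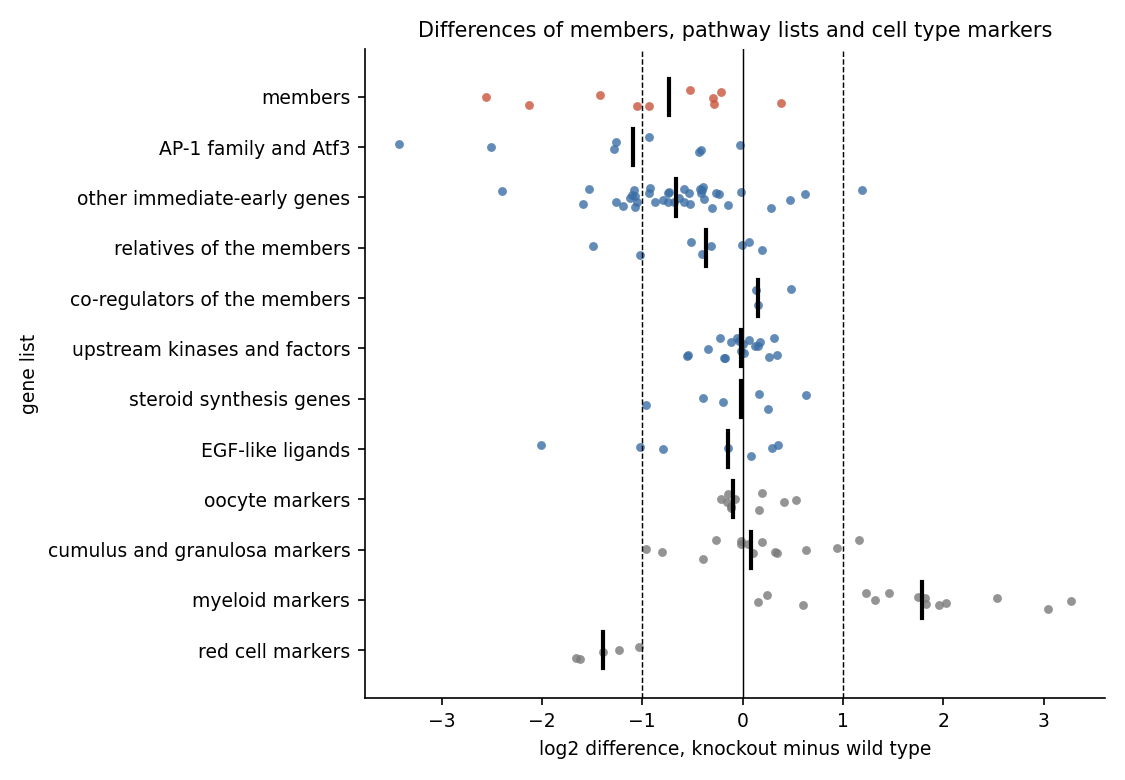
Difference between the arrays (log2, knockout minus wild type) for each measured gene of the members, of 7 related gene lists and of 4 sets of cell type markers, with bars at the medians and dashed lines at 2-fold. The members (median -0.73), the AP-1 family (-1.10) and the other immediate-early genes (-0.66) lie mainly left of 0, and upstream kinases and factors (-0.02) around it.

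Markers of other cells were present and some differed as well. All 14 cumulus and granulosa markers were well above background on both arrays at 1 or more probes. Pgr was so at 1 of its 4 probes, with signals of 17.0 and 19.1, close to the faintest accepted. The summed signals of the 14 were 186215 and 187747, a scaled knockout to wild-type ratio of 1.03. The brightest markers, such as Inha with 55712 and 67956, weigh most in the summed signal, so the ratio does not stand for the set. Gene by gene, 6 of these markers lay below 0 and 8 above, with a median difference of 0.08. Their differences ran from -0.96 for Star to 1.16 for Has2, a hyaluronan synthase gene, with 0 at least 2-fold lower and 1 at least 2-fold higher, or 2 higher on the spike-in scale. Red cell markers were lower, with all 5 at least 2-fold lower, differences from -1.66 for Hba-a2 to -1.03 for Alas2, and summed signals of 59852 and 19225. On the spike-in scale, and likewise with normexp, 4 of the 5 were. The haemoglobin genes are near-identical copies, so their probes may share signal. Myeloid markers were higher, with 11 of 14 at least 2-fold higher, differences from 0.15 for Cd14 to 3.27 for S100a9, and summed signals of 13121 and 38875. Each listed marker of these 3 sets was well above background on both arrays at 1 or more probes. The part of cumulus, granulosa, red cell, myeloid or oviduct RNA in the signals and differences of the members was not tested.

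Promoter sequence was available in the RefSeq window table (assembly GRCm38.p6) for 7 members, in 14 windows, and is described for the 250 bases before each start. Egr1, Egr3 and Ier2 are not described. Motifs were searched on both strands as the CRE half-site TGACG, which CREB can bind, the full CRE TGACGTCA, which holds that half-site, the EGR site GCGNGGGCG, the NR4A monomer site NBRE AAAGGTCA, the TATA box TATAAA, the CArG box of SRF and the kB site of NF-kB. Among all 32851 windows of the same length, 17.8% held at least 1 CRE half-site, 1.55% a full CRE, 4.70% an EGR site, 1.34% an NBRE, 12.4% a TATA box, 1.47% a CArG box and 3.90% a kB site. A match is a description of the letters and not evidence of binding.

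The single windows of Nr4a1, Nr4a2 and Nr4a3 each held 4 CRE half-sites, a number that 0.137% of all windows reach or pass. In Nr4a1 the half-site nearest the start began 40 bases before it, and in Nr4a2 and Nr4a3 it began 111 and 147 bases before it. Nr4a1 and Nr4a2 also held 1 EGR site each, and Nr4a2 a TATA box on the opposite strand. Their windows are shown with the matches in capitals, because they hold the most half-sites among the 7 members searched:
Nr4a1, chr15:101266596-101266845, + strand: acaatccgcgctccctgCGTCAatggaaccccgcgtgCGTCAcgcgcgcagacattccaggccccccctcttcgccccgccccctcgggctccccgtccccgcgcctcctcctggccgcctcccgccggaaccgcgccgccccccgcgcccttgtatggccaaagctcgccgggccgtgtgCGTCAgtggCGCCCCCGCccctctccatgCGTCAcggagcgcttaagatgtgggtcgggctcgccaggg
Nr4a2, chr2:57124004-57124253, - strand: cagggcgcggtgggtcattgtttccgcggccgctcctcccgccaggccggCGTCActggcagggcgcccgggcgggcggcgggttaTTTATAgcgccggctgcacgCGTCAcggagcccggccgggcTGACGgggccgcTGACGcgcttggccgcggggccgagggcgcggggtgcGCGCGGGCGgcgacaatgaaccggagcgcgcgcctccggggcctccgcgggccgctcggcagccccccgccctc
Nr4a3, chr4:48045055-48045304, + strand: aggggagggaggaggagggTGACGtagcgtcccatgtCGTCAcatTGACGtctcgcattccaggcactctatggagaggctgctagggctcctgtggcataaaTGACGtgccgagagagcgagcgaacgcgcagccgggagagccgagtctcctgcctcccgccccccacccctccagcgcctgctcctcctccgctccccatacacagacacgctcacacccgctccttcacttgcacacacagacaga

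The windows of Ifrd1 and of Ier3 differed in content. Ifrd1 held 1 CRE half-site and 1 EGR site, and Ier3 held 1 kB site and none of the other motifs. No link between motifs and the size of a difference is read from this pair. Nr4a3, at -0.29, held 4 half-sites, and Csrnp1, at -2.56, held 1 or 2 in each of its windows. The Ifrd1 and Ier3 windows are shown for their unlike content, with the matches again in capitals:
Ifrd1, chr12:40223190-40223439, - strand: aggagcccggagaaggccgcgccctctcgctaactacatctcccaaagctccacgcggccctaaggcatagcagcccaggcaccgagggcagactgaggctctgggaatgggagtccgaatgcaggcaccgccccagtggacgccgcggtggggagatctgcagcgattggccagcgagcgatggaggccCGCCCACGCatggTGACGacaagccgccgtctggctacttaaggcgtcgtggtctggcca
Ier3, chr17:35821463-35821712, + strand: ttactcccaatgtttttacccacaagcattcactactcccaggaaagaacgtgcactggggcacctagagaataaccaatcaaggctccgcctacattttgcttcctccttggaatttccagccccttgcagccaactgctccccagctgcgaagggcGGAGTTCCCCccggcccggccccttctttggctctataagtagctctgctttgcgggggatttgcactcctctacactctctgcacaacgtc

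Csrnp1 had 4 windows, which held 1, 2, 1 and 1 CRE half-sites and no other motif searched. Egr2 had 5 windows, and 4 of them held the CArG box, the motif through which SRF acts on immediate-early genes. Windows 3 to 5 overlap and hold the same CArG box, and window 2 holds another. In window 3 it lay 72 to 63 bases before the start, followed by a CRE half-site 55 to 51 bases before it. The stretch of 30 bases around both, at chr10:67537793-67537822 on the + strand of GRCm38.p6, is shown because no other of the 7 members searched had a CArG box in its windows, with both matches in capitals:
Egr2, window 3: cagtCCATATATGGgcagcgaCGTCAcggg

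**Figure D4:**
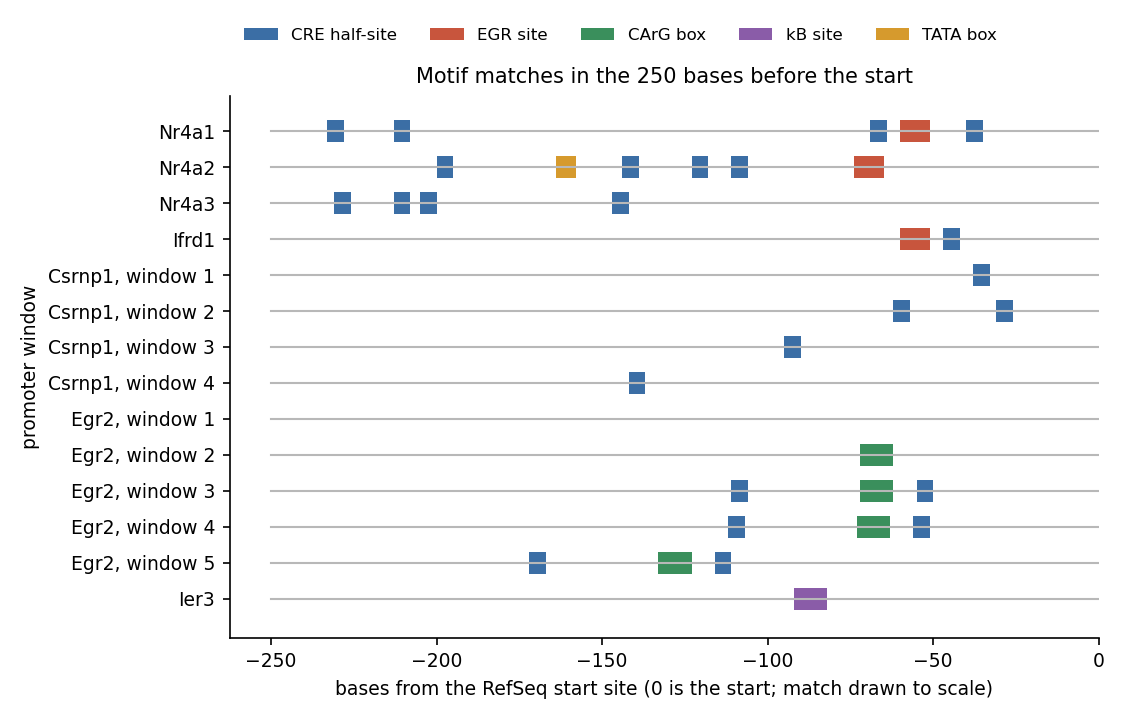
Position of each motif match, in bases from the RefSeq start site, along the 250 bases before the start in the 14 promoter windows of 7 members, with overlapping windows of Egr2 drawn separately. Nr4a1, Nr4a2 and Nr4a3 show 4 CRE half-sites each, and 4 of the 5 Egr2 windows show the CArG box.

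Except for Nr4a3, Ier2 and Ifrd1, no alternative moved a member by more than the scanner's error. That error is no measured spread, and it is smaller for genes with more probes averaged. Over 10 alternative settings Csrnp1 ran from -2.57 to -2.42, Nr4a1 from -1.44 to -1.28 and Egr1 from -0.96 to -0.80. Egr2 stayed above 0 in all 10, from 0.37 to 0.52, and the other 9 members stayed below 0 in all 10. Ifrd1 ran from -2.14 to -1.65, the smallest size coming from its brightest probe. Nr4a2 fell short of 2-fold in 1 setting, at -0.91 on the spike-in scale. Ier2 passed 2-fold in 1 setting, at -1.23 with the brightest probe of each gene. In the authors' deposited series-wide table the same probes gave -2.56 for Csrnp1, -1.41 for Nr4a1, -0.93 for Egr1 and 0.38 for Egr2. For the 5 members with 1 probe, the filters, the brightest probe and the kept outlier spots could return only the reported value. Median and spike-in scaling shift all genes alike, and the authors' values lie close to those of quantile normalisation. The settings are thus not independent checks. Each setting starts from the same pair of arrays and says nothing of the spread between pools.

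**Figure D5:**
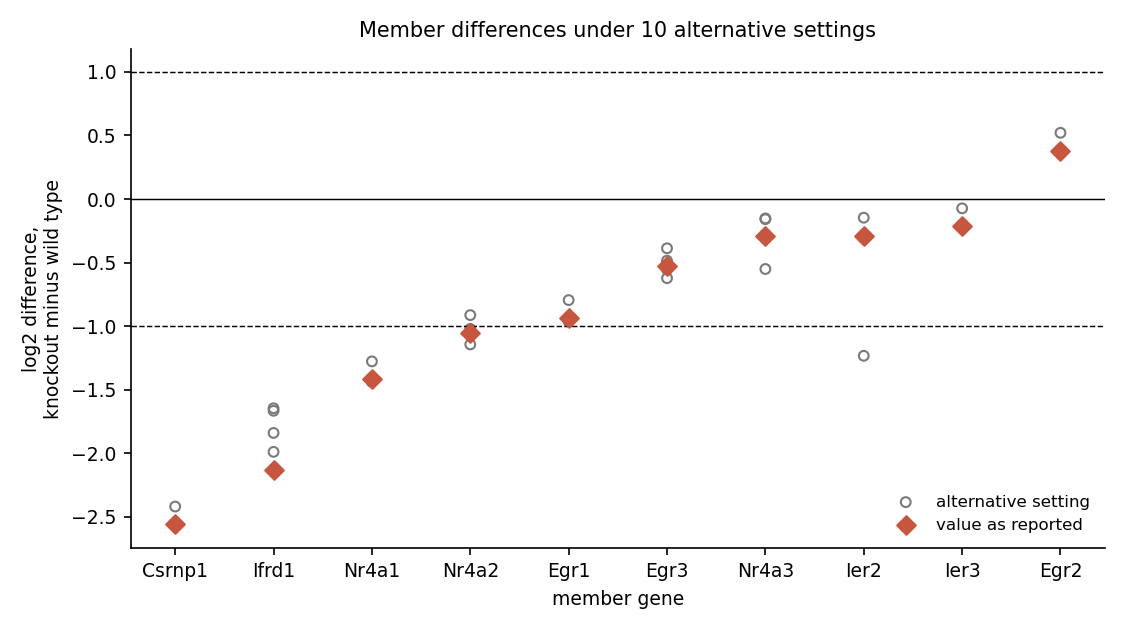
Difference (log2, knockout minus wild type) of each member as reported and under 10 alternative settings, with dashed lines at 2-fold. Ier2 and Ifrd1 spread most, from -1.23 to -0.15 and from -2.14 to -1.65, and these are the members whose probes disagree.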

How the data were processed

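Per the file headers, the deposited scanner files come from version 10.7.1.1 of Agilent Feature Extraction (the submitters' processing notes name 9.5.1.1) for array design 074809, with probe positions on mm9. Their processed intensity is linear, background-subtracted and detrended within each array, and not normalised between arrays. The authors' deposited series-wide intensity table has the same median, 57.9, in both columns, as after quantile normalisation, and its differences followed those computed here with r = 0.997 across probes.

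Outlier spots (88 and 84) were left out, spots of a probe averaged on the log2 scale and the 75th percentile subtracted. A gene's value is the mean over its probes well above background on both arrays. Gene names came from a RefSeq table, by accession for 32991 probes, by symbol for 10222 and by synonym for 520, and from the files for 12867. Alternatives used limma 3.58.1 in R 4.3.3 and pandas 2.3.3 in Python 3.11.15: other scalings (median, quantile, loess with span 0.3, 7 spike-in probes), normexp with offset 50, the authors' values, no filter or a filter at 4 times the lowest signal, the brightest probe, and outlier spots kept. The counting was tested on simulated data. Genes were named by rule: all members at every probe, up to 3 lowest and 3 highest of each list (5 for the other immediate-early genes), all relatives and co-regulators, the extreme marker on each side, and the 3 nearest genes to Csrnp1, Egr1 and Nr4a1. Mul1, the full set of oocyte markers, Inha, Pgr and Epcam were named outside this rule. The members and lists were chosen with earlier results of these data known. With 1 array per genotype, no test was made. The scanner's error, at bright spots a fixed share of the signal, is given in place of a spread. Annotation of exons and UTRs on mm9 was not used here. A gene of the upstream list that the rule would name, and a probe sequence, are not reported here.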

Additional observations from a re-analysis of the deposited data

How the results depend on the processing

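The count of members at least 2-fold lower, 4, was 3 on the spike-in scale, 5 with the brightest probe of each gene and 4 in the other 8 settings, and the count at least 2-fold higher was 0 in all 10. For members with 1 probe, several of these settings could return only the reported value. The background moved more. The spike-in scale raised the median of all genes from 0.03 to 0.17 and left 200 genes lower and 913 higher, so that 82.0% of genes apart were higher against 68.2% as reported. With normexp 116 genes were lower and 212 higher, without a filter on dim probes 1327 and 2764, and with the stricter filter 195 and 338, where the filters also change the number of genes measured. The cause of the shift with the spike-in scale or normexp was not tested. No paired analysis was possible because each genotype has 1 array and the labels carry no replicate numbers, and no array could be left out for the same reason. Signal over background limits the dim members: Nr4a3 without the filter, which adds 2 probes below background, read -0.55.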

Other observations

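The remaining sets of cell type markers were mixed. Of 6 oviduct epithelium markers 2 were at least 2-fold higher on the knockout array, Ovgp1, a secreted oviduct glycoprotein gene, at 1.54 and Epcam, named after its value was seen, at 1.09, and Krt18 was lowest at -0.14. With normexp, and likewise with the stricter filter, 1 oviduct marker was at least 2-fold higher. Of 4 endothelial markers the receptor gene Kdr, at 1.13, was at least 2-fold higher, and Tek was lowest at -0.27. With normexp, and likewise without a filter on dim probes, 0 endothelial markers were. None of 6 stromal markers was 2-fold apart, with Dcn lowest at -0.94 and Tagln highest at 0.62.

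Genes with an established symbol whose pair of log2 levels on the 2 arrays lay closest to a member were Klf6, Hspa5 and Ppp1r15a for Nr4a1, at distances of 0.11, 0.38 and 0.38. For Egr1 they were Jun at 0.26, the mitochondrially encoded ND4L at 0.34 and H2-Q4 at 0.38, and for Csrnp1 Hmox1 at 0.52, Socs3 at 0.74 and Hba-a1 at 0.82. Signals of different probes are not comparable as amounts of RNA, so this is likeness of a pair of readings.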
